A study of Mus musculus with 22 samples.

Results

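The proneural and neurogenic factors of the retina were followed here as 9 genes, Neurog2, Atoh7, Neurod1, Neurod4, Olig2, Foxn4, Hes6, Ptf1a and Insm1, taken by symbol from the 44792 genes of the deposited RNA count table. All 9 were in the table. Most proneural factors are basic helix-loop-helix (bHLH) proteins, which pair with E proteins, bind the E-box CANNTG, and push a dividing progenitor to leave the cell cycle and become a neuron. Notch signalling through the Hes and Hey repressors, and the Id proteins, which capture E proteins, hold them back. In fish the Müller glia, the radial glia that span the retina, return to proneural gene expression after injury and make neurons, while in the mouse retina they do so very little unless such factors are supplied.

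The 4 groups were C57BL/6 mouse retinal cells. Retinal progenitor cells (RPC) were collected at embryonic day 12.5, an age at which ganglion cells are the main neurons being born. Müller cells were sorted by flow cytometry through a green fluorescent reporter of Rlbp1, a retinoid carrier gene of these glia. They came from mice of 2 to 3 months given an intravitreal injection 2 days earlier of NMDA, an excitotoxin that kills inner retinal neurons (NMDA), from mice of 1.5 years (aged), and from untreated mice of 2 to 3 months (young). RNA came from 3 RPC, 3 NMDA, 2 aged and 2 young libraries, and DNA methylation from 3 libraries of each group, by bisulfite sequencing of a reduced, CpG-rich share of the genome (RRBS). The labels name no sort for the RPC and no number of animals per library. The series design text calls the young and aged RNA libraries and the RRBS libraries biological replicates. Where separate animals are not stated, p-values measure only the spread between these libraries.

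The RNA libraries held 10149390 to 36486072 counts. Summed Müller glia markers stood at 2284 to 2311 CPM (counts scaled to a common library total) in the RPC libraries, at 19140 to 25340 CPM in NMDA, at 52520 and 53220 CPM in aged and at 64890 and 55050 CPM in young libraries. All NMDA libraries were below all aged and young ones. Summed microglia and macrophage markers stood at 293.7, 3217 and 649.9 CPM in NMDA, 77.0 and 87.2 CPM in aged and 6.32 and 79.9 CPM in young libraries, and summed progenitor markers at 6790 to 7011 CPM in RPC and 1383 to 2604 CPM in Müller libraries. The Müller libraries also held 4968 to 12420 CPM of summed rod and cone markers, against 5.94 to 9.44 CPM in RPC. The RPC libraries held 254.5 to 489.7 CPM of summed ganglion cell markers, against 50.04 to 118.1 CPM in Müller libraries. In these bulk samples fewer cells of a type and less RNA per cell cannot be told apart. The 2 young RNA libraries stood apart: genes with fewer than 10 counts were 6.35% and 5.52% of their detected genes, against 14.3% to 29.5% elsewhere, and the 2 correlated with each other across genes at r = 0.865, against 0.960 to 0.993 within the other groups. Calls of the factors against young cells are therefore also given without each young library where that changed them, and counts of lists where that moved them by more than 1.5 times. Sex is not among the labels used here, and Xist stood at 886.3 to 2818 CPM in RPC, at 5.23, 2138 and 1981 CPM in NMDA, at 0.685 and 0.0301 CPM in aged and at 2723 and 0.493 CPM in young libraries. The part of these library differences in the results was not tested.

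The promoters of 5 factors, from 250 bases before to 50 after the annotated start, are shown with each CG in capitals because the factors differ in CpG content, and because RRBS positions lie inside 3 of them, Foxn4, Ptf1a and Neurod1. The sequences are RefSeq, build GRCm38.p6, written along the gene's own strand. Foxn4 (chr5:114273712-114274011, minus strand), Ptf1a (chr2:19445413-19445712, plus strand) and Neurod1 (chr2:79456587-79456886, minus strand) are dense in CG, Atoh7 (chr10:63099535-63099834, plus strand) less so, and Neurod4 (chr10:130280205-130280504, minus strand, the first of its 2 entries) is poor in it.
Foxn4: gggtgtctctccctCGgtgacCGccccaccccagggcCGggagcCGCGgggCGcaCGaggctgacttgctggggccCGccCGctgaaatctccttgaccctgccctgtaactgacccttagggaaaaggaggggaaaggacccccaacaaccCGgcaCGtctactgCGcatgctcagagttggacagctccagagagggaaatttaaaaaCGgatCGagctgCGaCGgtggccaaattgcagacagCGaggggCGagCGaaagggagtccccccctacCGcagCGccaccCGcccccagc
Ptf1a: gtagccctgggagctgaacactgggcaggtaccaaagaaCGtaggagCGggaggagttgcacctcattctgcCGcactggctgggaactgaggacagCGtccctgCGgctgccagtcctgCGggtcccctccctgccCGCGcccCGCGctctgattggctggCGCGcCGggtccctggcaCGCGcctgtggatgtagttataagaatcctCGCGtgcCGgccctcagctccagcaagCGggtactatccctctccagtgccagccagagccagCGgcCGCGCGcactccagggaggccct
Neurod1: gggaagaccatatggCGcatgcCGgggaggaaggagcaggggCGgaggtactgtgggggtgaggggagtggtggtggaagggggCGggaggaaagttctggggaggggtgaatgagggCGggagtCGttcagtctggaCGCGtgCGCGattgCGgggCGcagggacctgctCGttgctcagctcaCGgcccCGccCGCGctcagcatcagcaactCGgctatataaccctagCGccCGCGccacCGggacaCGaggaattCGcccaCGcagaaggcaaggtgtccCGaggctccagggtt
Atoh7: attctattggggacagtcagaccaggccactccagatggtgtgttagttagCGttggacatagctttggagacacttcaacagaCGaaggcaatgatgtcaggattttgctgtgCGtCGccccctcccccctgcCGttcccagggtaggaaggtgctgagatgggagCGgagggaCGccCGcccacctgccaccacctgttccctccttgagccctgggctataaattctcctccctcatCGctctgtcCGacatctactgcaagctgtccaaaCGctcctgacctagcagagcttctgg
Neurod4: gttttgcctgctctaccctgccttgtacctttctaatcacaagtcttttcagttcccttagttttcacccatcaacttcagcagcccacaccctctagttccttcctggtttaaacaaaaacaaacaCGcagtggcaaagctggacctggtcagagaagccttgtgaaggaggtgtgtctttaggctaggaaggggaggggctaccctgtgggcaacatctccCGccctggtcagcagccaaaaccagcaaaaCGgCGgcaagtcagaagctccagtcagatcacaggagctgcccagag
These windows held 22 CG in Foxn4, 23 in Ptf1a, 26 in Neurod1, 11 in Atoh7 and 4 in Neurod4, where the median of 32851 annotated promoters was 7. The E-box CANNTG, searched on both strands, was found 3 times in the Atoh7 window: once as CAGATG, 218 bases before the start, and 2 times as CACCTG, 67 and 57 bases before it. Neurod1 held a single CANNTG, and the Foxn4, Ptf1a and printed Neurod4 windows held none. A CANNTG match occurred in 72.3% of all promoters, CAGATG in 17.2% and CACCTG in 20.2%, so a match is a description of the letters and no more. Hes6 held a further CACCTG in the first of its 2 entries.

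In progenitors 7 of the 9 factors were higher than in each Müller group, and Neurod1 and Neurod4 were not called in either direction. The 7 were Neurog2, Atoh7, Olig2, Foxn4, Hes6, Ptf1a and Insm1, with edgeR's quasi-likelihood test at an adjusted p under 0.05 over 18931 genes. Against young cells 35.9% of all tested genes were called higher, against NMDA cells 25.8% and against aged cells 26.3%. The number of factors lower in RPC was 0 in each comparison with edgeR, 0 at an unadjusted p under 0.05 and 0 with DESeq2, while 24.9%, 31.9% and 29% of all genes were called lower in the same 3 comparisons. Atoh7, Olig2, Foxn4 and Ptf1a passed the low-count filter only through the RPC libraries in which they are high, so their calls could only go that way. The 3 comparisons share the RPC libraries.

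**Figure D1:**
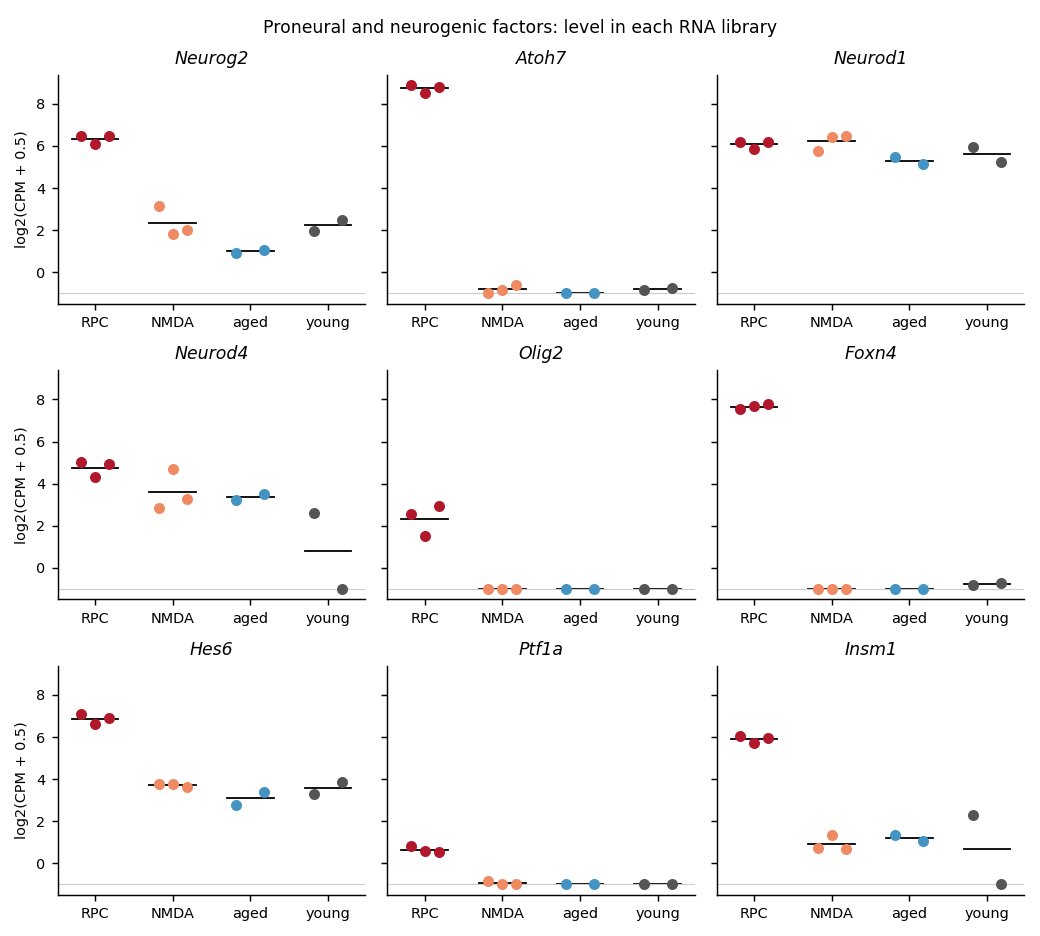
Level of each factor in every RNA library, as log2 of CPM plus 0.5, in RPC, NMDA, aged and young cells. Points are libraries, black lines group means of the plotted values, and the grey line is the level of a gene at 0. Atoh7, Foxn4, Olig2 and Ptf1a lie on or near the grey line in all 7 Müller libraries, while Neurod1 lies between 34.4 and 89.7 CPM in every library.

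Neurog2 (chr3:127632733-127635636) marks progenitors about to make neurons. It stood at 89.8, 67.8 and 88.4 CPM in RPC, 8.26, 3.03 and 3.51 CPM in NMDA, 1.398 and 1.596 CPM in aged and 3.42 and 5.12 CPM in young libraries. Every RPC library was above every Müller library, the NMDA and young libraries overlapped, and both aged libraries were the lowest of all. The log2 change was 4.15 (SE 0.49, adjusted p = 1.1e-04) for RPC against young, 3.83 (SE 0.40, adjusted p = 4.8e-05) against NMDA and 5.45 (SE 0.52, adjusted p = 2.8e-05) against aged cells.

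Atoh7 (chr10:63099785-63101280), which confers competence to become a ganglion cell, was on at a high level in progenitors and close to undetected in Müller glia. It had 6934, 3987 and 5191 counts in RPC libraries (478, 360 and 454 CPM), 0, 1 and 3 counts in NMDA, 0 in both aged and 1 count in each young library. The ratio of pooled levels, RPC over young, was 5515 with an exact 95% interval of 1527 to 45550, which covers counting error only. Against aged cells, with no count, Atoh7 was at least 10110-fold higher in RPC, taking 3 counts over the pooled aged libraries as the floor.

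Foxn4 (chr5:114254164-114274418), a forkhead factor that starts the amacrine and horizontal cell fates, followed the same division. It had 2697, 2253 and 2490 counts in RPC (186, 204 and 218 CPM), none in any NMDA or aged library, and 1 count in each young library. RPC over young gave a pooled ratio of 2547 (exact 95% interval 704.8 to 21030), and Foxn4 was at least 3460-fold higher in RPC than in NMDA and at least 4668-fold higher than in aged cells. Its 3 RPC libraries differed little, at a mean of 202.3 ± 15.97 CPM (SD, n = 3).

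Ptf1a (chr2:19445663-19447501), the bHLH factor that acts after Foxn4 in amacrine and horizontal precursors, was low even in progenitors. It had 18, 11 and 11 counts in RPC (1.24, 0.994 and 0.961 CPM), 1 count in a single NMDA library and 0 in the 6 other Müller libraries. It was at least 9.13-fold higher in RPC than in young and at least 25.1-fold higher than in aged cells, and its pooled ratio to NMDA cells was 55.8 (9.46 to 2259). Its annotated span overlaps the lncRNA Ptf1aos, and because no strand setting of the counting was given, the 2 cannot be told apart.

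Olig2 (chr16:91225550-91228677), a bHLH factor of a subset of retinal progenitors and of the oligodendrocyte lineage, had 78, 26 and 83 counts in RPC (5.37, 2.35 and 7.25 CPM) and none in any Müller library. The largest and smallest RPC values differed more for Olig2, relative to its mean of 4.99 ± 2.47 CPM (SD, n = 3), than for the other 6 factors called higher. It was at least 42.7-fold higher in RPC than in young, at least 87.0-fold higher than in NMDA and at least 117-fold higher than in aged cells. Its span overlaps the lncRNA Gm52261, so the counts of the 2 genes cannot be told apart either.

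Hes6 and Insm1 act beside and after the proneural factors. Hes6 (chr1:91411483-91414038), which relieves repression by Hes1, was present in every library, at 135, 98.3 and 119 CPM in RPC, 13.2, 13.2 and 11.8 CPM in NMDA, 6.36 and 10.1 CPM in aged and 9.21 and 14.2 CPM in young libraries. RPC lay above all Müller libraries, which overlapped among themselves except that aged lay below NMDA. The log2 change was 3.21 (SE 0.29, adjusted p = 2.2e-05) against young, 2.97 (SE 0.24, adjusted p = 1.0e-05) against NMDA and 3.52 (SE 0.29, adjusted p = 1.2e-05) against aged cells.

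Insm1 (chr2:146221997-146225020), a zinc finger factor of newborn neurons and late progenitors, stood at 65.8, 51.9 and 62.2 CPM in RPC, 1.13, 2.02 and 1.11 CPM in NMDA, 2.03 and 1.57 CPM in aged and 4.47 and 0 CPM in young libraries. The 2 young libraries lay on either side of all other Müller libraries, with 68 counts in one and none in the other. The log2 change was 4.54 (SE 1.11, adjusted p = 0.0069) for RPC against young, 5.15 (SE 0.96, adjusted p = 0.0017) against NMDA and 4.74 (SE 1.11, adjusted p = 0.0060) against aged cells. Without the second aged library the call against aged cells was lost at a log2 change of 4.56 (adjusted p = 0.060).

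Neurod1 and Neurod4, bHLH factors that act late in the cascade and remain in mature photoreceptors and bipolar cells, were counted in adult Müller libraries as well. Neurod1 (chr2:79452637-79456636) stood at 72.1, 57.6 and 72.5 CPM in RPC, 54.3, 86.9 and 89.7 CPM in NMDA, 44.1 and 34.4 CPM in aged and 62.0 and 37.4 CPM in young libraries. RPC overlapped NMDA and young, and lay wholly above aged libraries. The log2 change of RPC was 0.31 (SE 0.29, adjusted p = 0.39) against young, -0.43 (SE 0.26, adjusted p = 0.19) against NMDA and 0.46 (SE 0.29, adjusted p = 0.21) against aged cells.

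Neurod4 (chr10:130268152-130280254) stood at 32.0, 19.2 and 29.9 CPM in RPC, 6.55, 25.1 and 9.13 CPM in NMDA, 8.83 and 11.0 CPM in aged and 5.53 and 0 CPM in young libraries. RPC lay above aged and young and overlapped NMDA through 1 library, the second. The log2 change of RPC was 3.11 (SE 1.23, adjusted p = 0.055) against young, 0.76 (SE 0.96, adjusted p = 0.52) against NMDA and 1.14 (SE 1.10, adjusted p = 0.41) against aged cells. The first of these passed without either young library, at 11.78 (adjusted p = 6.5e-04) without the first, where the remaining young library had no count, and 2.15 (adjusted p = 0.029) without the second, and with DESeq2 at 3.15 (adjusted p = 0.011).

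Markers of the cell types in which these 2 factors persist were measured in the same libraries. Summed rod and cone markers stood at 6261, 9058 and 10230 CPM in NMDA, 7559 and 4968 CPM in aged and 12420 and 8654 CPM in young libraries, with all 10 markers detected in each. Summed bipolar markers were 190.3, 346.2 and 224.2 CPM in NMDA, 123.1 and 141.3 CPM in aged and 110.0 and 95.3 CPM in young libraries, where 1 and 2 of the 8 markers were at 0. The second NMDA library had the highest bipolar sum, the highest microglia sum and the highest Neurod4 level of the Müller libraries, and aged libraries the lowest mean of Neurod1. RPC, with Neurod1 at 67.4 ± 8.47 CPM (SD, n = 3), had 5.94 to 9.44 CPM of rod and cone markers and 3 of the 10 at 0. The bipolar sum in RPC was 122.8, 103.3 and 113.7 CPM, overlapping that in young libraries, with 2 of the 8 markers at 0. Isl1 is in both this list and the ganglion cell programme, so the bipolar sum does not read bipolar cells alone. The part of other cells in the Müller values of Neurod1 and Neurod4 was not tested.

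**Figure D2:**
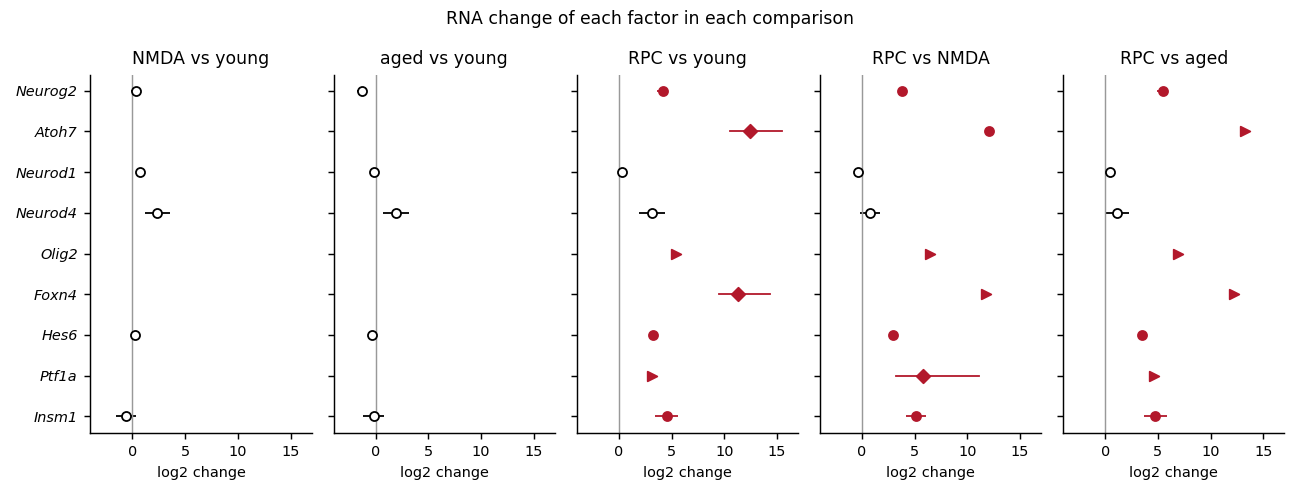
Log2 change of each factor in the 5 comparisons, the first named group over the second. Circles are edgeR estimates with their SE, filled red where called; diamonds are ratios of pooled counts with exact 95% intervals, and triangles are lower bounds against a group at 0. Red symbols fill the 3 RPC panels except at Neurod1 and Neurod4, and no symbol is red in the NMDA and aged panels, where Atoh7, Olig2, Foxn4 and Ptf1a are not drawn because both groups had at most 4 counts.

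After NMDA injury none of the 9 factors was called higher or lower than in young Müller cells, where 30.6% of all tested genes were called higher and 14.3% lower. Of the 9, only 5 passed the low-count filter in the Müller groups alone; Atoh7, Olig2, Foxn4 and Ptf1a had too few counts there to be called, so the 0 rests on the 5 others. At an unadjusted p under 0.05 there was 1 in each direction, and DESeq2 called 0. Neurod1 had the smallest adjusted p, with 77.0 ± 19.7 CPM in NMDA (SD, n = 3) and 49.7 ± 17.4 CPM in young cells (SD, n = 2) and a log2 change of 0.73 (SE 0.29, adjusted p = 0.072). Its call rested on single libraries: it was called higher at 1.18 (adjusted p = 0.013) without the first young library and at 0.94 (adjusted p = 0.028) without the first NMDA library. Neurod4 lay above both young libraries in all 3 NMDA libraries, at a log2 change of 2.35 (SE 1.19, adjusted p = 0.14). Neurog2 changed by 0.32 (SE 0.43, adjusted p = 0.58), Hes6 by 0.24 (SE 0.26, adjusted p = 0.48) and Insm1 by -0.61 (SE 0.97, adjusted p = 0.64).

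The young library that is left out decided Insm1 and Neurod4. Without the first, Neurod4 (11.03) and Insm1 (7.78) were called higher in NMDA cells, being set against a single library with no count. Without the second, Insm1 was called lower in NMDA cells (-1.55, adjusted p = 0.0042). Under upper-quartile scaling 5094 genes were called higher and 3825 lower, against 5795 and 2702 with TMM scaling, and the median log2 change of all genes was 0.04 with upper-quartile and 0.26 with TMM scaling.

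In aged Müller cells likewise no factor passed, where 21.1% of all tested genes were called higher and 5.85% lower than in young cells. The same 4 factors had too few counts to be called in this comparison. At an unadjusted p under 0.05 there were 0 higher and 2 lower, and 1 of the 2 was among those 4 factors. DESeq2 called 1 lower, Neurog2. Both aged libraries of Neurog2 lay below both young ones, at 1.50 ± 0.14 CPM in aged and 4.27 ± 1.20 CPM in young cells (SD, n = 2 each), a log2 change of -1.31 (SE 0.47, adjusted p = 0.074). It was called lower with DESeq2 (-1.36, adjusted p = 0.024) and with upper-quartile scaling (-1.48, adjusted p = 0.049). Upper-quartile scaling called 3527 genes higher and 1848 lower, against 3997 and 1108 with TMM, and the median of all genes was 0 with upper-quartile and 0.13 with TMM scaling. Neurod1 changed by -0.16 (SE 0.32, adjusted p = 0.78), Hes6 by -0.31 (SE 0.28, adjusted p = 0.47), Neurod4 by 1.97 (SE 1.23, adjusted p = 0.29) and Insm1 by -0.19 (SE 1.03, adjusted p = 0.94). Without the first young library Neurod4 (10.65) and Insm1 (8.19) were called higher in aged cells, and without the second Insm1 was called lower (-1.14, adjusted p = 0.024). The NMDA and aged comparisons share the young libraries.

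Genes that act with, against and after the factors were counted in full lists. Of the 3 E proteins, the bHLH partners, Tcf3 (277.5 ± 6.94 CPM in RPC, n = 3, and 102.3 ± 2.17 CPM in young cells, n = 2, SD; log2 change 1.31) and Tcf12 (1.18) were higher in RPC, and Tcf4 was lower (-0.78). In NMDA cells Tcf4 (1.23) and Tcf12 (0.91) were higher and Tcf3 was lower (-0.39) than in young ones, and in aged cells Tcf4 was higher (1.63). The call of Tcf3 was lost without either young library. Of the 12 other proneural bHLH genes 5 could be tested, and all 5 were higher in RPC than in young cells, where 35.9% of all genes were; 4 of the 5 passed the filter in the Müller groups alone. In NMDA cells and in aged cells alike 3 of the 5 were higher than in young ones (30.6% and 21.1% of all genes), and without the first young library 1 of 6 tested in each. Nhlh1 (at least 91.0-fold higher in RPC) and Nhlh2 (pooled ratio 632.6, interval 113.3 to 25010) mark newborn neurons.

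Several repressors were lower in NMDA than in young cells. Of all genes 30.6% were called higher and 14.3% lower in NMDA than in young cells. The shares against young cells were 21.1% and 5.85% in aged cells, and 35.9% and 24.9% in RPC. Of the 10 Notch effectors, Id genes and Rest, 1 was called higher and 5 lower in NMDA than in young cells. Their median log2 change was -0.81, where that of all tested genes was 0.26. Hes5 averaged 19.5 CPM in NMDA and 204.8 CPM in young cells (log2 change -3.29, SE 0.34, adjusted p = 1.55e-04). Hes1 averaged 126.6 CPM in NMDA and 342.8 CPM in young cells (-1.33), and Id3 49.9 and 125.1 CPM (-1.22). The summed Müller markers given above were also lower in NMDA than in young libraries and the microglia markers higher, and their part in these changes was not tested. In RPC 1 of the 10 was higher and 6 lower than in young cells (median -0.95, all genes 0.30); Hey2 averaged 2.20 CPM in RPC and 147.0 CPM in young cells (-6.22). Without the first young library 4 of the 10 were lower in RPC, and without the second 3 were higher and 6 lower. In NMDA cells 3 of the 10 were higher without the second young library. In aged cells 1 was called higher, Rest (1.403), and 1 lower, Id3 (-0.76); with upper-quartile scaling 3 were lower, and without the second young library 4 were higher and 2 lower.

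Most genes listed as targets of the factors were higher in RPC than in young cells. Of all genes 35.9% were called higher and 24.9% lower there. Of 15 proneural targets and effectors 12 were higher and 3 lower in RPC than in young cells (median 2.87, all genes 0.30), and 1 lower without the first young library. Sox11 averaged 1401 CPM in RPC, 0.26 CPM in NMDA, 0.97 CPM in aged and 1.30 CPM in young cells, a log2 change of 10.03 against young cells (SE 0.57, adjusted p = 1.4e-06). Mfng, which modifies Notch, was at least 452.5-fold higher in RPC than in young cells, and Dll1, the Notch ligand, changed by 2.19. Btg2 was lower (-3.34), with 116.8 CPM in RPC and 1075 CPM in young cells. Of 14 genes of the ganglion cell programme after Atoh7, 13 were higher in RPC than in young cells and 0 lower, where 35.9% and 24.9% of all genes were. Only 9 of the 14 passed the filter in the Müller groups alone, and the others could only be called higher. The list had a fitted median of 10.51 and of 7.46 when 6 genes at 0 in young cells were set at their bounds. Pou4f2 averaged 125.5 CPM in RPC and 0.03 CPM in young cells (pooled ratio 3262, interval 585.2 to 128900), and Ebf3 was at least 572.3-fold higher. Against NMDA cells all 14 were higher in RPC, where 25.8% of all genes were. The same limit of the filter applied there.

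In NMDA cells a few genes of these programmes were called higher than in young cells, from low levels. Of the 14 ganglion cell genes 3 were called higher and 0 lower, a smaller share than the 30.6% of all genes called higher, and the count was the same in aged cells, 3 higher and 0 lower. Ebf3 averaged 1.41 CPM, Ebf1 1.27 CPM and Onecut1 0.36 CPM in NMDA cells, and all 3 were at 0 in young cells. In NMDA cells 5 were higher and 1 lower without the first young library, and in aged cells 6 were higher without the first, and 5 higher and 2 lower without the second. Of 11 pan-neuronal early genes 6 were higher and 0 lower in NMDA cells, and 3 higher and 1 lower in aged cells; without the first young library 4 were higher in NMDA cells. With all libraries 30.6% of all genes were called higher and 14.3% lower in NMDA cells, and 21.1% and 5.85% in aged cells. The aged counts of the pan-neuronal genes were close to these shares. Stmn2 stood at 30.8 CPM in NMDA and 0 in young cells (at least 260.9-fold higher). Gap43 stood at 48.2 CPM in NMDA and 5.69 CPM in young cells (log2 change 3.19). The young libraries had 8 and 6 of these 11 genes at 0, where the NMDA libraries had 0 or 1, and the part of the young libraries' missing low counts in these calls was not tested.

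**Figure D3:**
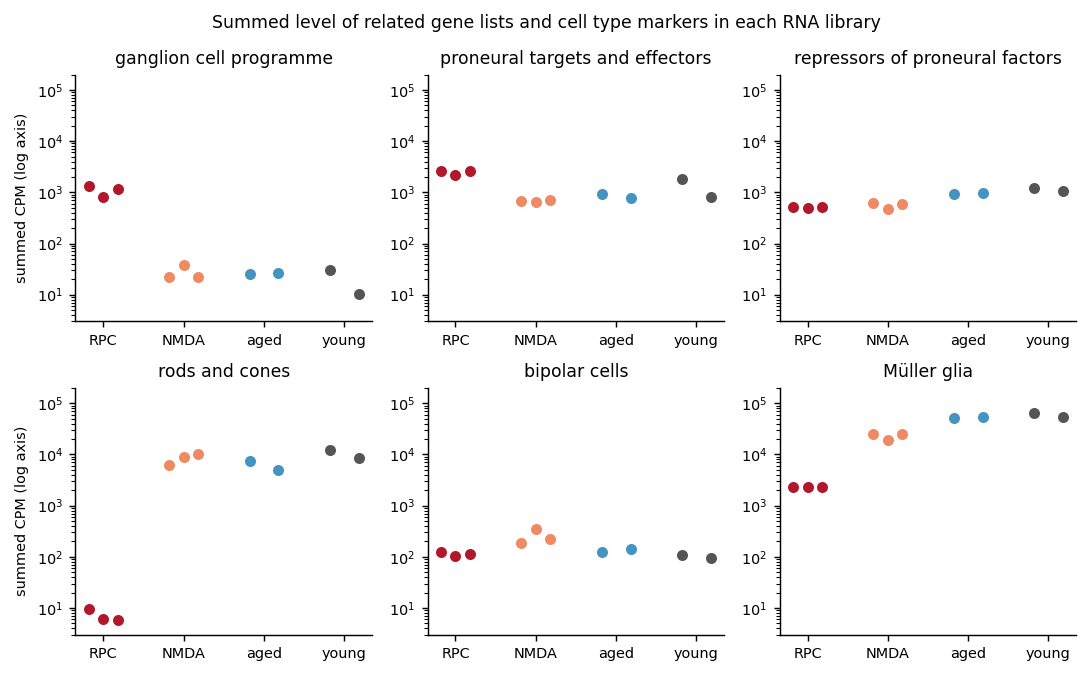
Summed CPM, on a log axis, of 3 lists of genes related to the factors (top) and of 3 lists of cell type markers (bottom) in each RNA library of RPC, NMDA, aged and young cells. The ganglion cell programme sums to between 793.4 and 1319 CPM in RPC and to at most 38.0 CPM in Müller libraries, and rod and cone markers to at most 9.44 CPM in RPC.

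Programmes of later cell types were split. Of all genes 35.9% were called higher and 24.9% lower in RPC against young cells. The shares were 25.8% and 31.9% against NMDA, and 26.3% and 29% against aged cells. Of 8 tested genes of the amacrine and horizontal programme after Foxn4 and Ptf1a, 5 were higher and 2 lower in RPC against young cells. The 2 lower, and the 2 higher and 3 lower against NMDA cells, were near the shares of all genes. Against aged cells 0 were higher and 2 lower, the 2 again near the share. Without the first young library 3 were higher in RPC than in young cells. Against NMDA cells 1 was higher without any single NMDA or RPC library, and against aged cells 1 was higher without the second aged library, 1 with upper-quartile scaling and 2 with DESeq2. Gad1, which makes the transmitter GABA, was at 0 in RPC and averaged 12.2 CPM in NMDA cells, at least 151.7-fold lower in RPC, and Prox1 averaged 96.5 CPM in RPC and 197.5 CPM in NMDA cells (-1.27). Of 10 photoreceptor and bipolar precursor genes 2 were higher and 6 lower in RPC than in young cells (median -3.60), and 1 was higher and 7 lower without the first young library. Nrl, the rod-determining factor, averaged 0.39 CPM in RPC and 288.0 CPM in young cells (-9.67), while Otx2, which starts the photoreceptor fate, averaged 57.7 CPM in RPC and 28.2 CPM in young cells (0.91). Neurod1 was not called different between RPC and Müller libraries. The part of photoreceptor RNA in its Müller values was not tested.

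The genes whose profile over the 10 libraries was most like each factor were found by Pearson correlation of log2(CPM + 0.5) among 16574 genes. For Foxn4 they were Sfrp2 (r = 0.9998), Mir92-1 and Mir3063, for Atoh7 LOC102637282, Mir130b and Mir3063, for Neurog2 Csnk1d, Ppp2r1b and Rnf4, and for Hes6 Phtf2, Ctbp1 and Set. For Olig2 they were Pmfbp1, Igsf1 and LOC432842, for Ptf1a Gareml, LOC331528 and LOC102634727, and for Insm1 Mex3c, Ldlrad3 and Zfp706. The 10 libraries fall into RPC and Müller libraries, so likeness above 0.95 was shared with 369 genes for Insm1, 712 for Neurog2 and 1347 for Atoh7. Neurod4 had 25 such genes, led by Rpf1 (r = 0.974), Rab14 and Bmi1. Neurod1 had 0, the nearest being Ubl5 (r = 0.940), Prdx1 and Znhit1.

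DNA methylation around the factors was low in every group, including at factors with no RNA. Windows of the gene span with 2 kb to either side held 668 cytosine positions, counted per strand, that were listed with at least 10 reads in all 12 RRBS libraries, among 743808 on autosomes. They covered 8 of the 9 factors. Of these positions 600 (89.8%) lay below 5% methylation in the reads of all 12 libraries pooled, against 59.7% of all positions. Setting Foxn4 aside, the mean level of a window ranged from 1.11% to 2.33% over the factors in RPC, 0.58% to 2.23% in NMDA, 0.33% to 1.78% in aged and 2.73% to 4.37% in young cells.

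**Figure D4:**
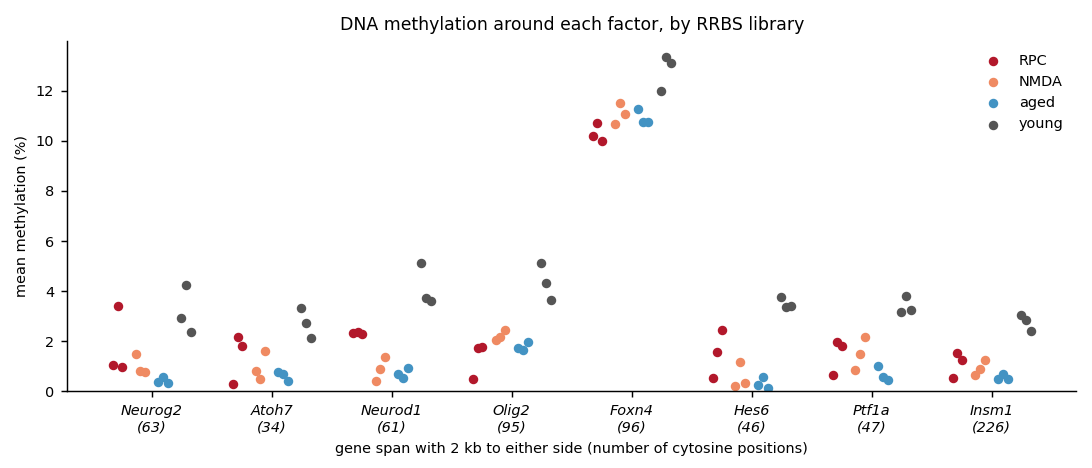
Mean methylation of the measured cytosine positions in the window of each of 8 factors, with the number of positions below its name; each point is an RRBS library of RPC, NMDA, aged or young cells. Foxn4, at 10.3% on average in RPC and 12.8% in young cells, lies above all other windows, and the young mean is the highest of the 4 groups in each window.

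The printed promoters show the same. The 25 measured positions of the Foxn4 promoter averaged 0.81 ± 0.32% in RPC, where the gene is on, and 0.88 ± 0.11% in NMDA, 0.47 ± 0.42% in aged and 3.50 ± 1.51% in young cells, where it is off (SD, n = 3 each). The 30 positions of the Ptf1a promoter averaged 1.12 ± 0.77% in RPC, 1.09 ± 0.79% in NMDA, 0.33 ± 0.20% in aged and 2.40 ± 0.77% in young cells. The 20 positions of the Neurod1 promoter averaged 2.78 ± 1.49% in RPC, 0.98 ± 0.64% in NMDA, 0.40 ± 0.36% in aged and 3.02 ± 0.37% in young cells. Over the 34 positions of the Atoh7 window, none of them in the printed promoter, the mean was 1.43 ± 1.01% in RPC, 0.98 ± 0.57% in NMDA, 0.64 ± 0.18% in aged and 2.73 ± 0.61% in young cells. Atoh7, Foxn4 and Ptf1a thus averaged a few percent or less near their starts both in RPC, where their RNA was counted, and in Müller cells, where it was at or close to 0.

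The mean of the young libraries was the highest of the groups at low positions, and not at the factors alone. At all positions below 5% over the 12 libraries pooled, the young libraries averaged 1.99% to 2.80%. The other 9 libraries averaged 0.389% to 1.37%. At the 600 such positions of the factors the young libraries averaged 1.88% to 2.88% and the others 0.397% to 1.18%. The cause was not tested.

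Single positions were tested with a quasi-binomial model of the methylated and unmethylated reads, a call needing an adjusted p under 0.05 and at least 10 points between the pooled levels. Of 639 tested positions of the factors 0 were higher and 3 lower in NMDA than in young cells, where 2.08% and 1.09% of all positions were called higher and lower, and 2 higher and 15 lower passed at an unadjusted p under 0.05. In aged cells 0 were higher and 16 lower than in young cells, with 0.448% and 3.59% of all positions, and 2 and 26 at an unadjusted p. In RPC 0 were higher and 13 lower than in young cells, with 4.81% and 2.71% of all positions, and 1 and 19 at an unadjusted p. Against NMDA cells 1 was higher and 1 lower in RPC (2.41% and 2.18% of all), and against aged cells 3 were higher and 4 lower (4.92% and 1.75%). Each of these counts is a smaller share of the 639 positions than the share called among all positions. The 2 shares are not like for like. A call needs at least 10 points, and 89.8% of the factors' positions lay below 5% pooled, against 59.7% of all.

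Foxn4 held the methylated part of the set. At 9 of its positions, 2617 to 21549 bases after the start, the pooled level was above 50% in every group, at 68.3% or more. A pair of positions lay 1035 and 1028 bases before the annotated start used for the printed promoter. The pair averaged 4.65 ± 4.46% in RPC, 31.1 ± 2.73% in NMDA, 49.5 ± 7.21% in aged and 46.2 ± 10.8% in young cells (SD, n = 3 each). The mean of the pair was at most 8.89% in RPC and at least 29.1% in Müller libraries; at the outer position alone RPC and NMDA libraries overlapped. Both positions were called lower in RPC than in aged and in young cells, where 1.75% and 2.71% of all positions were. Neither was called against NMDA cells, where 1 library had only 10 reads. The pair was singled out because it held called positions. A further position, 2609 bases after the start and singled out for its call, was higher in RPC (76.4% pooled) than in aged cells (31.2%). It stood at 56.7% in NMDA and 48.6% in young cells, with young libraries from 32.8% to 68.2%. It was the 1 position called higher there of 94 tested at Foxn4, where 4.92% of all positions were.

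At Olig2 the 7 positions beyond the end of the gene, 3353 to 3588 bases after the start, averaged 1.35 ± 1.74% in RPC, 9.55 ± 4.21% in NMDA, 8.87 ± 2.48% in aged and 13.3 ± 2.61% in young cells (SD, n = 3 each). All 3 RPC libraries lay below all 9 Müller libraries. Of the 7 positions 3 were called lower in RPC than in young, 2 than in aged and 1 than in NMDA cells. Of all positions 2.71%, 1.75% and 2.18% were called lower in these comparisons. The stretch was singled out because it held called positions, and the Neurod1 position that follows was singled out in the same way. At Neurod1 a single position 228 bases before the start, inside the printed promoter, stood at 14.9% in RPC, 2.79% in NMDA, 1.74% in aged and 20.7% in young cells in the pooled reads, and was called lower in NMDA and in aged than in young cells and higher in RPC than in NMDA and aged cells.

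Neurod4 had no position listed in all 12 libraries. Within the gene 5 positions, 8963 to 9139 bases after its start, were listed in 10 libraries, and each library's mean lay between 83.7% and 96.0%. Near the start only single libraries reached 10 reads, at 5 listed positions in all, each at 0%.

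Most of the positions called lower in RPC lay outside the 2 kb flanks. With flanks of 5 kb, an alternative setting, the Neurog2 window gained 57 positions in 728 bases, 5401 to 4674 bases before the Neurog2 start (chr3:127627735-127628462). They lie inside the annotated lncRNA gene Gm40147 (chr3:127626162-127628803), which is not a row of the RNA table. Their mean level was 0.620%, 2.97% and 1.48% in the RPC libraries, 16.9%, 11.3% and 10.8% in NMDA, 15.5%, 17.04% and 15.7% in aged and 21.6%, 23.7% and 21.0% in young libraries. Every RPC library was far below every Müller library, young libraries were the highest, and NMDA and aged libraries overlapped. Of 56 tested positions 40 were called lower in RPC than in young, 21 than in NMDA and 31 than in aged cells, and none higher. Of all positions 2.71%, 2.18% and 1.75% were called lower in these 3 comparisons. Between Müller groups 4 were lower in NMDA and 5 in aged than in young cells, where 1.09% and 3.59% of all positions were. The positions are neighbours in 1 stretch, which was singled out after its values were seen, and its outer limit is that of the 5 kb flank.

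**Figure D5:**
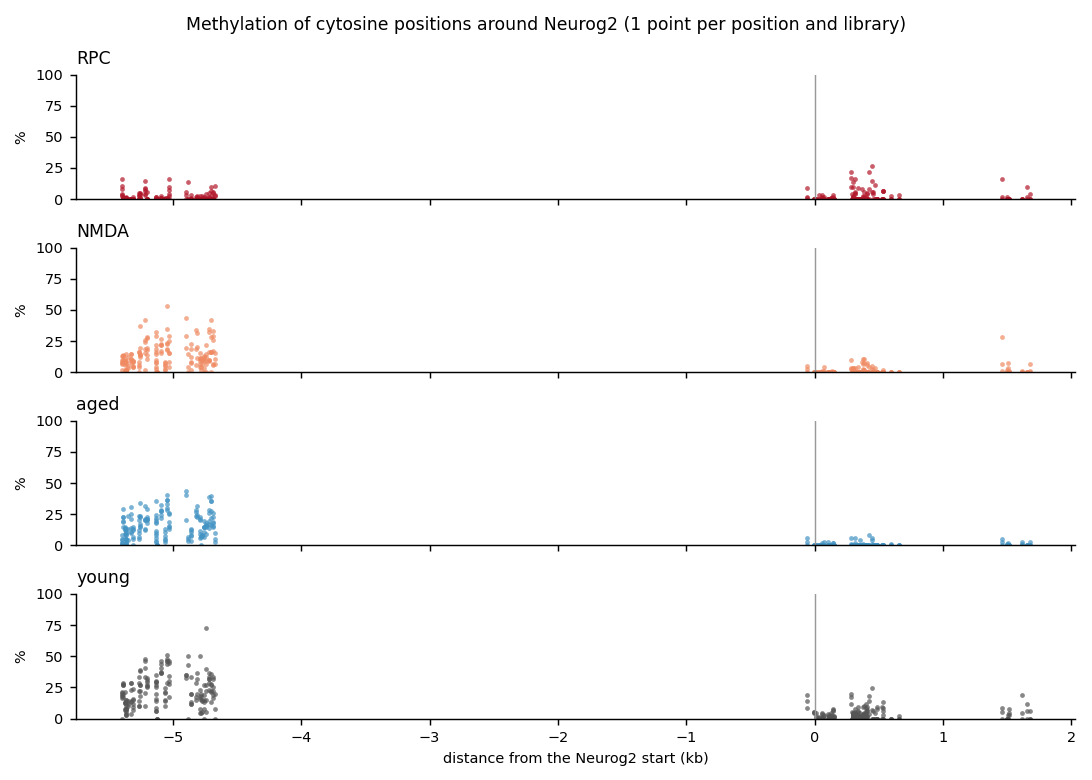
Methylation of each measured cytosine position around Neurog2 against its distance from the annotated start in kb, with 1 point per position and library and 1 panel for each of RPC, NMDA, aged and young cells. Positions near the start are low in all groups, and those 4674 to 5401 bases before it average 1.69% in RPC, 13.0% in NMDA, 16.1% in aged and 22.1% in young cells.

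With 5 kb flanks 5 positions were called higher and 10 lower in NMDA than in young cells, where 2.08% and 1.09% of all positions were; 4 of the 5 lay at Insm1, in a stretch singled out after its values were seen. On the low-coordinate side of Insm1 33 positions (chr2:146218465-146219478) averaged 0.89 ± 1.09% in RPC, 10.3 ± 4.27% in NMDA, 3.70 ± 1.09% in aged and 8.04 ± 3.67% in young cells (SD, n = 3 each), so NMDA and young libraries overlapped on the whole. Of these positions 4 were called higher and 1 lower in NMDA than in young cells. At the first of the 4 the level was 10.4% to 30.3% in NMDA and 0.893% to 3.33% in young libraries. Compared with NMDA cells, 6 of the 33 were lower in RPC, where 2.18% of all positions were.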

How the data were processed

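RNA was sequenced from 10 libraries and RRBS from 12. The authors deposited raw counts per gene, and for RRBS a coverage count per cytosine with the percent of methylated and unmethylated reads, listed only from 10 reads upward. The submitters' processing notes list methylKit 1.4.0, Bismark 0.16.3, HISAT2 2.0.4 and Trim Galore 0.4.3, with build mm10. Neither the tool that counted reads nor its strand setting is given. The deposited counts were tested with edgeR 4.0.16 in R 4.3.3 (TMM scaling, filterByExpr, quasi-likelihood test, Benjamini-Hochberg adjusted p under 0.05), with 1 fit of 4 groups; DESeq2 1.42.0 was an alternative. CPM is the count scaled to a common library total, and 1 count was 0.0274 to 0.0985 CPM. Intervals and floors of 3 counts cover counting error only. RRBS reads were fitted in Python 3.11.15 with a quasi-binomial model over 718061 autosomal positions, strands kept apart; median coverage was 53 to 110 reads. Both tests were checked on simulated data. Gene spans and promoters are RefSeq GRCm38.p6. All 9 factors are described; related genes come from lists counted in full, of which examples are named. The factors and lists were chosen with earlier results of these data known. Alternatives were other scalings, filters, windows, coverage minimums, a replicate block and leaving out each library. A gene of these lists is not reported here by name.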

Additional observations from a re-analysis of the deposited data

How the results depend on the processing

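Of the counts of factors called in RNA, 117 under alternatives stayed within 1.5 times the value reported and 7 did not. Leaving out single libraries gave 0 to 3 factors higher and 0 to 1 lower in NMDA than in young cells, and 0 to 2 higher and 0 to 1 lower in aged than in young cells; 1 was lower in aged cells with upper-quartile scaling and 1 with DESeq2. Of the counts of RRBS positions 77 stayed and 53 did not. With no minimum difference 1 position was higher and 19 lower in NMDA than in young cells, 1 and 92 in aged than in young, 3 and 53 in RPC than in young, 3 lower in RPC than in NMDA and 9 higher in RPC than in aged cells. With 5 kb flanks 5 were higher and 10 lower in NMDA than in young, 28 lower in aged than in young, and 58, 30 and 37 lower in RPC than in young, NMDA and aged cells. Without flanks 7 were lower in RPC than in young, 0 higher and 0 lower than in NMDA, and 0 lower than in aged cells; at 20 reads the lower counts were 7, 0 and 1. With 2 groups alone 1 was lower in NMDA and 7 in aged than in young cells, and 2 in RPC than in NMDA cells. Leaving out single RRBS libraries gave 0 to 1 higher and 1 to 13 lower in NMDA than in young cells, 0 to 1 higher and 7 to 23 lower in aged than in young cells, 0 to 3 higher and 5 to 17 lower in RPC than in young cells, 1 higher throughout and 0 to 3 lower in RPC than in NMDA cells, and 1 to 7 higher and 1 to 5 lower in RPC than in aged cells.

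Same-numbered libraries did not deviate together, with correlations of -0.057 to 0.083 in RNA and -0.026 to 0.046 in RRBS, so the numbers do not pair them. With the replicate block no count of factors in RNA moved, and 3 in place of 6 pan-neuronal genes were higher in NMDA than in young cells; in RRBS 1 position was higher and 9 lower in NMDA than in young cells, 1 higher in RPC than in young and 3 lower in RPC than in NMDA cells, and Insm1 in aged against young cells reversed to 0.11 on the log2 scale.

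The log2 changes of single factors kept direction and call under 510 alternatives, passed the threshold under 14, lost it under 1 and reversed under 12. Atoh7 was -0.133 in NMDA against young cells with upper-quartile scaling. Beside this and Insm1 under the replicate block, reversals came with a single library left out, where the log2 changes for NMDA against young cells ran from -0.26 to 0.61 for Neurog2, -1.14 to 0.57 for Atoh7, -0.018 to 0.56 for Hes6 and -1.55 to 7.78 for Insm1. For aged against young cells they ran from -0.48 to 0.29 for Neurod1, -0.67 to 0.0060 for Hes6 and -1.14 to 8.19 for Insm1, and for RPC against young cells from -0.022 to 0.75 for Neurod1. With 2 groups alone Neurod1 (0.41) and Neurod4 (1.09) were called higher in RPC than in aged cells. The cause was not tested. Fits without a library of a pair assume that the lone library varies like the other groups. Depth limits Ptf1a and the factors at 0, and RRBS reads no position common to all libraries at Neurod4.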
